A study of Mus musculus with 2 samples.

Results

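The 40 genes described here encode transcription factors and cofactors that direct the blood lineages, from the stem cell factors Gata2, Tal1 and Runx1 to the erythroid factors Gata1 and Klf1, the myeloid Cebp genes and the B-cell factors Ebf1 and Pax5. They were chosen by symbol among the 31709 genes with a probe on the array, 39 under the listed symbol and Spi1 through its older symbol Sfpi1. Their 53 probes were printed at 1 spot each, and 27 of the genes were read by 1 probe and 13 by 2 probes.

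RNA came from parental Ba/F3, an interleukin-3-dependent pro-B line of the mouse, and from BaF/3 (#BEB1), a clone of the same cells. The clone was taken after infection with a retroviral cDNA library made from CG4 cells, a rat oligodendrocyte precursor line, and repeated sorting of cells that bound an Ecrg4-Fc fusion protein. Both lines were kept in medium with foetal calf serum and mouse interleukin-3. Each line was hybridised to 1 Agilent one-colour whole mouse genome array, both on 1 slide and scanned together, so the comparison lacks replicates and p-values. The clone, the library virus and the selection cannot be told apart.

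The array of each cell line is not settled. Array A stands for the scanner output deposited under the parental cells, but its values match the BaF/3 (#BEB1) column of the authors' table of log2 values (Pearson r = 0.999996 over probes, against 0.982286 for array B). Array B stands for that deposited under BaF/3 (#BEB1), and its values match the parental column (0.999998, against 0.982285 for array A). Log2 differences subtract array B from array A. By the table, values above 0 are thus higher in BaF/3 (#BEB1), and by the scanner output higher in the parental cells. Olr1, which encodes the LOX-1 receptor cloned in the study from these cells, had a signal of 12962 on array A against 289 on array B, a difference of 5.01. The study states that LOX-1 mRNA was higher in BaF/3 (#BEB1), which is the direction of the table.

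Signals are background-subtracted intensities, and for comparison they were scaled by the 75th percentile of each array (1506 for array A and 1080 for array B), so a gene with equal signals on both arrays has a difference below 0. Measured genes are those with 1 or more probes well above background on each array, and the difference of a gene is the average of these probes. Array A had 49.4% and array B 49.9% of its probes well above background. No spot was saturated, and the median SD between repeat spots of 1 probe was 0.058 and 0.054 on the log2 scale. The error SD of a single difference, from the spot errors of the scanner software, was 0.20 to 0.26 for the measured factors. It covers the array only, rests mostly on a preset 10% signal error, and leaves out any spread between cultures.

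Lineage factors act as small networks on the regulatory DNA of the genes that define a cell type. In stem and progenitor cells, Gata2, Tal1, Lyl1, Lmo2 and Runx1 bind many of the same sites. Red cell and megakaryocyte formation runs through Gata1 with its cofactor Zfpm1 (FOG-1) and, in red cells, Klf1, while Spi1 and the Cebp factors direct granulocytes and monocytes. B-cell formation is built on Tcf3, Ebf1 and Pax5, which switch on the genes of the pre-B receptor.

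Of the 40 factors, 26 (65.0%) were measured on both arrays, against 46.7% of all genes. Irf8 was well above background on array B only, and 13 factors were well above background on neither array. All 6 erythroid and megakaryocytic factors were measured, as were 9 of 10 stem and progenitor factors and 6 of 8 granulocyte, monocyte and mast cell factors. In contrast, 2 of 11 B-lineage factors were measured, and 3 of 5 T-lineage and other lymphoid factors. Values of different genes come from different probes and are not ranked against each other.

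**Figure D1:**
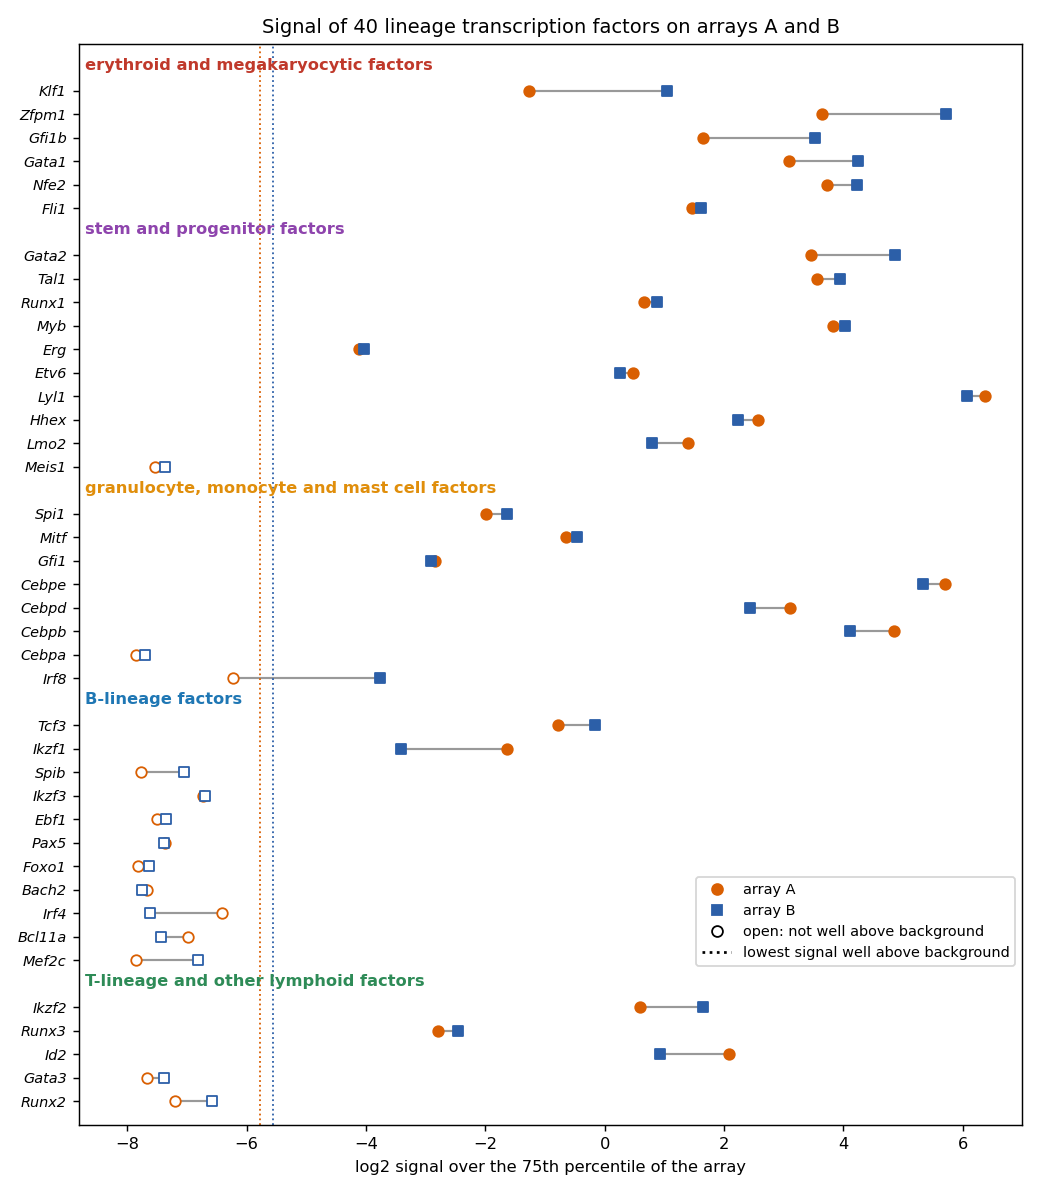
Signals of the 40 factors, divided by the 75th percentile of each array and on a log2 axis, 1 row per gene in 5 role groups, with circles for array A and squares for array B and 1 array per cell line. Open symbols mark genes with no probe well above background on that array, and dotted lines the lowest signal well above background; 9 of 11 B-lineage factors lie below these lines on both arrays, and all 6 erythroid and megakaryocytic factors lie above them.

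Ba/F3 is described as a pro-B line, but factors that define B-cell commitment were not detected. Ebf1 and Pax5, which commit precursors to the B lineage, were well above background on neither array, nor were Foxo1, which activates the recombinase genes in early B cells, Ikzf3, Spib, Irf4, Bach2, Bcl11a and Mef2c. The same holds for Gata3, the T-cell and basophil factor, for Runx2, for Meis1, a partner of Hox proteins in stem cells, and for Cebpa, which starts granulocyte development. The 18 probes of these 13 genes had signals from 5.62 to 19.2 on array A and from 4.66 to 20.5 on array B, below the lowest signals well above background of 27.6 and 22.9. On array A 12 of the 18 values, and on array B 11, were surrogates set by the scanner software for spots not above background, so no difference is given for these genes.

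Of 29 listed targets and surface genes of B cells on the array, 11 (37.9%) were measured, against 46.7% of all genes, and 18 were well above background on neither array, among them Cd79a, Rag1, Rag2, Dntt, Il7r and Blnk. The summed scaled signal of the list was 30.3 on array A against 26.7 on array B. The 4 of 11 measured genes that were 2-fold or more apart were higher on array B, against 7.30% of all measured genes, while 0 were higher on array A (1 with median scaling), against 3.85%. Cd79b, a signalling chain of the B-cell receptor, had a signal of 419 on array A against 1480 on array B, a difference of −2.30. Cd72, an inhibitory receptor of B cells, was at 428 and 944 (−1.62). Vpreb1, of the pre-B receptor, and its relative Vpreb3 differed by −1.39 and −1.38, and fell short of 2-fold with normexp background correction (−0.94 and −0.92).

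Of the 26 measured factors, 6 (23.1%) were brighter on array B by 2-fold or more, against 7.30% of all 14815 measured genes, and 2 (7.69%) were brighter on array A to this degree, against 3.85% of all. The 6 were Klf1, Zfpm1, Gfi1b, Gata2, Gata1 and Ikzf2, and the 2 were Ikzf1 and Id2. By the table, the former were lower in BaF/3 (#BEB1) and the latter higher, and by the scanner output the reverse. The other 18 differed by less than 2-fold. The median difference of the 26 was −0.20 (quartiles −0.59 and 0.33), against −0.018 (−0.41 and 0.34) over all measured genes. Scaling each array to its median, which moves every difference by 0.29 towards array A, gave 4 factors higher on array B and 3 on array A, against 3.96% and 8.86% of all genes. Normexp background correction gave 5 and 2, against 4.77% and 2.60%. In such bulk RNA, fewer cells of a type and less RNA per cell cannot be told apart.

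**Figure D2:**
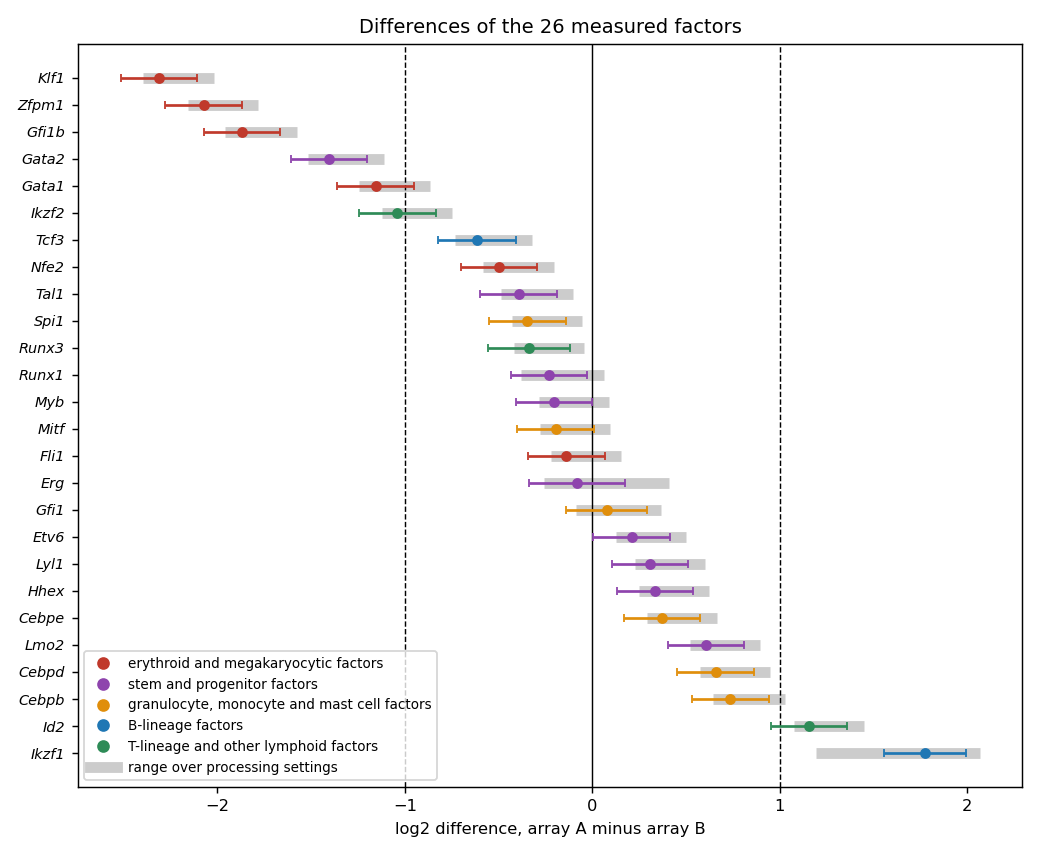
Difference on the log2 scale, array A less array B, for the 26 measured factors, coloured by role group, with bars of ±1 error SD of the spot signals (array only, 1 array per cell line) and grey bands for the range over 13 processing settings. Dashed lines mark 2-fold; Klf1 (−2.31) and Ikzf1 (1.77) are at the ends, and 14 of the 26 factors lie within 0.5 of 0.

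Among the 5 role groups, drawn up with earlier results of these data known, the erythroid and megakaryocytic factors lay furthest towards array B. All 6 had a difference below 0, but with median scaling Fli1 did not. Their median was −1.51 (−1.22 with median scaling), against −0.018 (0.27) over all measured genes, itself below 0 in the main setting. Of the 6, 4 were higher by 2-fold or more on array B (3 with median scaling), against 7.30% (3.96%) of all measured genes. The signal of Klf1, the erythroid Krüppel-like factor that activates adult globin genes, was 625 on array A against 2224 on array B. It was thus 4.96-fold higher on array B after scaling, a difference of −2.31 ± 0.20 (error SD), and 0.55% of all measured genes had a lower difference. Zfpm1, the FOG-1 cofactor that binds Gata factors, was at 18773 on array A against 56675 on array B, 4.21-fold higher on array B (−2.07 ± 0.20). Both Zfpm1 probes gave nearly the same difference (−2.09 and −2.06), but they share 55 bases and are not separate evidence. Gfi1b, a zinc finger repressor needed for red cells and platelets, was at 4730 and 12397, a 3.65-fold difference (−1.87 ± 0.20). These 3 factors were higher by 2-fold or more on array B under all 13 settings, several of which leave a gene with 1 probe unchanged.

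Gata1, the zinc finger factor required for red cells and megakaryocytes, had a signal of 12796 on array A against 20455 on array B, 2.23-fold higher on array B (−1.16 ± 0.20). It fell short of 2-fold with median scaling (−0.86). Nfe2, a leucine zipper factor of platelet formation, was at 19955 and 20195, which is −0.50 after scaling. Fli1, an Ets factor of megakaryocytes, was at 4164 and 3289, a difference of −0.14 that lies within the error SD and turns to the other sign under median scaling. Nfe2 and Fli1 were thus less than 2-fold apart, and only the difference of Fli1 was within the error SD.

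The probes of Klf1 and Zfpm1 both lie on chromosome 8 in mm9, at chr8:87428881-87428940 and chr8:124861087-124861151 on the plus strand. That of Gfi1b lies at chr2:28464982-28465041 and that of Gata1 at chrX:7536392-7536451, both on the minus strand. Their exons and UTRs were not looked up, since no annotation of mm9 was used here. Lyl1, whose probe is 200.3 kb from that of Klf1, differed by 0.31 against −2.31 for Klf1.

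The promoters of these 4 genes are shown with matches to TGATAA or AGATAA, letters that GATA factors recognise. Whether GATA factors have a part in the differences of these genes was not tested. The sequences are the 250 bases before the RefSeq start site in GRCm38.p6, read 5′ to 3′ on the strand of the gene, with matches to TGATAA or AGATAA on either strand in capitals. The regions are chr8:84901732-84901981 for Klf1, chr2:28621983-28622232 (minus strand) for Gfi1b, chr8:122281891-122282140 for Zfpm1 and chrX:7967911-7968160 (minus strand) for Gata1.
Klf1: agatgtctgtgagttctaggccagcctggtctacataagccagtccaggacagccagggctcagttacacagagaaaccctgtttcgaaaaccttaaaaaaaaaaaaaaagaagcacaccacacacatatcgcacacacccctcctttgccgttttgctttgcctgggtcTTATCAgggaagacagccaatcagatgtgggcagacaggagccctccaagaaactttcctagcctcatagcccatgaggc
Gfi1b: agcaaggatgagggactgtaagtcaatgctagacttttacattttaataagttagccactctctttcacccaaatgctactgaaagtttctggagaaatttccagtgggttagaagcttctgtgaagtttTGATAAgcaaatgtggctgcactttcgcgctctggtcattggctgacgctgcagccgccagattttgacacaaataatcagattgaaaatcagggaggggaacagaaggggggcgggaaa
Zfpm1: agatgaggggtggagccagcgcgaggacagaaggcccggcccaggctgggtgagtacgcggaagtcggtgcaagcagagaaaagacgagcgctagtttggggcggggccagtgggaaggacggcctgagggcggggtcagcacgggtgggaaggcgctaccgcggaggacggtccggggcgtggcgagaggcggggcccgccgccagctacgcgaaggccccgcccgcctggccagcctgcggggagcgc
Gata1: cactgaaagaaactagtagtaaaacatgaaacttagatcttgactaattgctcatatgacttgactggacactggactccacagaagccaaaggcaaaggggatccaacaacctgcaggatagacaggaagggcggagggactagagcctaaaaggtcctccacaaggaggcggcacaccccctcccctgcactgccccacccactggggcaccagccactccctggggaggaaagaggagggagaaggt

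The Klf1 promoter held 1 match, on the opposite strand, whose leftmost base lies 80 bases before the start, and the Gfi1b promoter held 1 match, 120 bases before it. Neither Zfpm1 nor Gata1 had a match in these windows. Mitf, Tal1 and Erg, which were less than 2-fold apart, and Bach2, which was not detected, also held a match. Of the 5 factors higher by 2-fold or more on array B that had a promoter in the RefSeq table, 2 held TGATAA and 0 held AGATAA. Counted by gene in the same way, 4 of all 32 factors with a promoter held TGATAA and 2 held AGATAA. Among all 32851 RefSeq promoter windows of 300 bases, 9.05% held TGATAA and 11.2% held AGATAA, and among the 46 windows of 32 factors, 10.9% and 4.35% did. A CACC-type motif of Krüppel-like factors, CCNCNCCC, was in 76.1% of the factor windows and 49.5% of all windows, with a median GC content of 58.2% and 52.7%, and the stricter CCACACCC was in 0 factor windows and 3.56% of all. The E-box CAGNTG, bound by Tal1, Lyl1 and Tcf3 complexes, was in 34.8% of the factor windows against 51.4% of all, and the Ets letters AGGAAG in 23.9% against 35.4%. The Runx letters TGNGGT (45.7% against 45.8%) and the Cebp letters TTNNGNAA (41.3% against 40.7%) were about as frequent in both. All motifs were searched on both strands, and matches of different motifs may overlap. These are counts of letters, not of bound sites.

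The stem and progenitor factors were mostly similar on both arrays, with a median difference of −0.081 over 9 measured genes and a range from −1.40 to 0.61. Gata2, the Gata factor of stem cells and mast cells, was the 1 member at least 2-fold apart. Its signal was 16552 on array A against 31423 on array B, 2.65-fold higher on array B (−1.40 ± 0.20), and it stayed past 2-fold under all 13 settings. Gata1, which replaces Gata2 at many sites as red cells mature, and Gata2 were thus both higher on array B.

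Tal1, the partner of Gata factors in stem and red cells, was at 17743 on array A against 16711 on array B, a difference of −0.39. Its relative Lyl1 was at 125200 and 72493, a difference of 0.31. Lmo2, the bridging protein that joins Tal1 to Gata factors, was at 3978 and 1875, 1.52-fold higher on array A (0.61). Members of this shared complex therefore differed in sign, with Gata2 and Tal1 towards array B and Lmo2 and Lyl1 towards array A. With median scaling Lmo2, Lyl1 and Tal1 kept their signs, but Tal1 (−0.10) was then within its error SD of 0.20.

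Runx1, the core-binding factor subunit needed for the first blood stem cells, was at 2370 and 1995 as the mean of its probes, a difference of −0.23 (−0.38 and −0.083 by probe). Myb, which maintains progenitor growth, was at 21265 and 17567 (−0.20). Both changed sign with median scaling. The Ets factor Etv6 was at 2085 and 1294 (0.21), and the homeobox factor Hhex at 8968 and 5107 (0.33). Erg, another Ets factor of stem cells, was dim at 86.7 and 65.8, with a difference of −0.081 by 1 probe, and its other probe reached well above background on array A alone, so its sign depended on the probes used (0.41 with both).

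The granulocyte, monocyte and mast cell factors had a median difference of 0.22, and 0 of the 6 measured were at least 2-fold apart. Cebpb, the Cebp factor of inflammatory macrophages, had a signal of 43193 on array A against 18588 on array B, 1.67-fold higher on array A (0.74 ± 0.20), and reached 2-fold with median scaling (1.03). Cebpd was at 12890 and 5861, 1.58-fold higher on array A (0.66). Cebpe, which drives the late granule genes of neutrophils, was at 78751 and 43651 (0.37). The 3 measured Cebp genes thus all lay above 0, under all 13 settings.

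Spi1, which encodes the Ets factor PU.1 of myeloid and B cells, was at 379 on array A against 346 on array B (−0.35). Gfi1, the paralogue of Gfi1b that represses monocyte genes in granulocytes, was at 210 and 143, a difference of 0.076 within its error SD of 0.22, against −1.87 for Gfi1b. Mitf, a mast cell and pigment cell factor, was at 956 and 786, and its probes gave −0.20 and −0.19. Irf8, the interferon regulatory factor of monocytes and dendritic cells, was at 20.1 on array A, not well above background, and at 79.3 on array B. On array B it was thus at least 4.01-fold higher. Among the 1690 genes well above background on 1 array only, 28.4% were higher by 2-fold or more on array B by their bound. With normexp, the Irf8 bound was −0.94, under 2-fold.

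The lymphoid factors held both genes higher by 2-fold or more on array A. Ikzf1 encodes Ikaros, a zinc finger factor needed for lymphocyte development. By the probe that was well above background, its signal was 483 on array A against 101 on array B, 3.42-fold higher on array A (1.77 ± 0.22). The other Ikzf1 probe was above background on neither array (20.3 and 8.14). The difference ranged from 1.19 with normexp to 2.07 with median scaling. Id2, an inhibitor that binds E proteins such as Tcf3 and keeps them from DNA, was at 6358 and 2045, 2.23-fold higher on array A (1.16 ± 0.20), and past 2-fold under all 13 settings.

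Tcf3, the E protein on which B-cell formation depends, was at 878 on array A against 964 on array B, 1.53-fold higher on array B (−0.62, with −0.73 and −0.50 by probe). Id2 and its binding partner Tcf3 therefore differed in opposite directions, the latter by less than 2-fold. Ikzf2, which encodes the Ikaros family member Helios, was at 2282 and 3368, 2.06-fold higher on array B (−1.04). Its probes gave −1.28 and −0.81, and the difference was under 2-fold with median scaling (−0.75), with normexp (−0.98) and by the brightest probe (−0.81). Ikzf1 and Ikzf2 lay on opposite sides of 0, with Ikzf3 not detected. Runx3, of cytotoxic T cells, was at 217 and 196 (−0.34), with probes at −0.62 and −0.055.

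**Figure D3:**
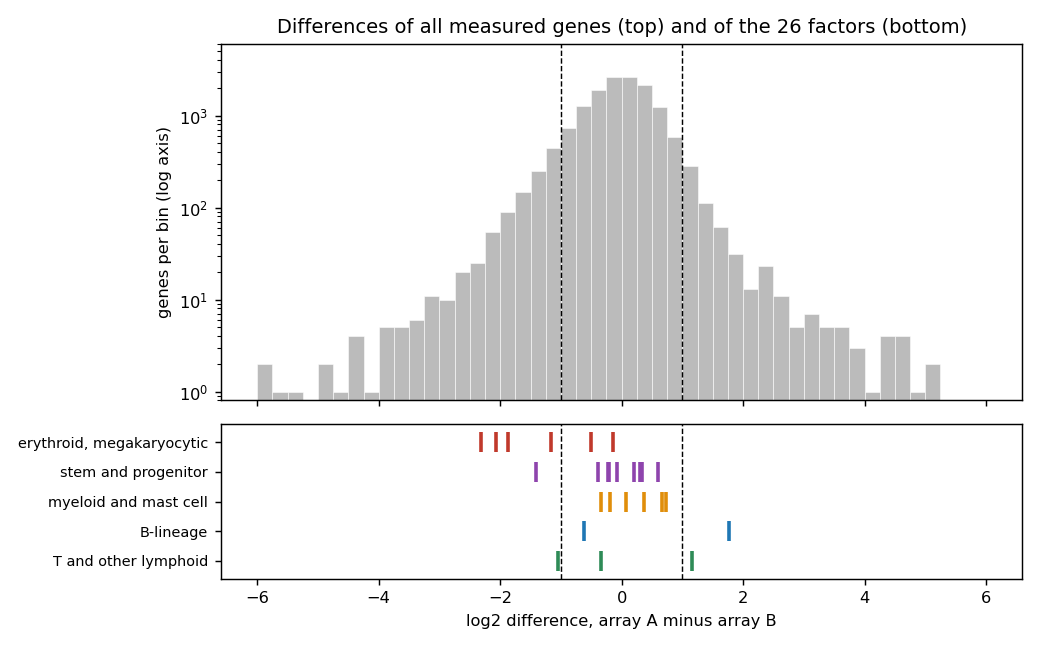
Top, number of the 14815 measured genes per bin of the log2 difference (array A less array B) on a log axis; bottom, the 26 measured factors as ticks in 5 role groups on the same axis, with dashed lines at 2-fold. The erythroid and megakaryocytic ticks run from −2.31 to −0.14, and 7.30% of all genes lie at or beyond 2-fold on the array B side against 3.85% on the array A side.

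Genes typical of each lineage were set beside the factors, as listed markers of the cell types the factors serve. Their counts stand against 7.30% of all measured genes brighter by 2-fold or more on array B and 3.85% on array A. Of 14 measured erythroid genes, 4 were higher by 2-fold or more on array B (28.6%) and 0 on array A, with a median of −0.63 (−0.34 with median scaling). Epor, the erythropoietin receptor gene and a target of Gata1, was at 552 on array A against 1652 on array B (−2.06). The adult alpha-globin gene Hba-a1 was at 223 and 1464 (−3.20), though its family shares sequence. Icam4, a red cell adhesion molecule gene, differed by −1.37. The defining red cell genes Alas2, Slc4a1, Ahsp and Kel were well above background on neither array. Car1 was above background on array B alone, at least 2.12-fold higher there, and its bound was under 2-fold with normexp (−0.69), with quantile scaling (−0.80) and with arrays scaled to their medians (−0.79). The summed scaled signal of the list was 18.4 on array A against 31.6 on array B. The bright gene Urod (12710 and 18008), under 2-fold apart at −0.98, weighs most in it.

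Of 7 measured megakaryocyte and platelet genes, 3 (42.9%, against 7.30% of all measured genes) were higher by 2-fold or more on array B, namely the platelet glycoprotein gene Gp9 (633 and 1920, −2.08), Itga2b (−1.21) and Pf4 (−1.18), and 1 (14.3%, against 3.85%) on array A, the thrombin receptor gene F2rl2 (1.73). With median scaling, Itga2b (−0.92) and Pf4 (−0.88) were under 2-fold, and Pf4 also with normexp (−0.89) and quantile scaling (−0.98). Well above background on array B only were Ppbp (at least 24.1-fold), Gp1ba (at least 10.6-fold) and Thbs1 (at least 9.05-fold), with smaller bounds of −3.15, −1.90 and −2.03 on the log2 scale under normexp. The markers Vwf, Gp6 and Treml1 were detected on neither array. The median was −0.32, and the summed scaled signal was 11.9 on array A against 12.5 on array B.

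The neutrophil granule genes include targets of Cebpe and Gfi1. Of 15 measured, 8 (53.3%, against 7.30% of all measured genes) were higher by 2-fold or more on array B and 1 (6.67%, against 3.85%) on array A, with a median of −1.73 (−1.43 with median scaling). S100a9, a calcium-binding protein of neutrophils, was at 444 on array A against 18995 on array B (−5.90). The collagenase gene Mmp8 was at 41.5 and 950 (−4.99), and Ngp (−4.07), Prtn3 (−3.20), Ltf (−3.11) and Mpo (−2.84) differed in the same direction. S100a8, above background on array B alone, was higher there by at least 180.0-fold, a bound of −7.49 on the log2 scale that was −5.57 with normexp. Differences of genes dim on array A were smaller with normexp, such as that of Mmp8 (−3.68). The siderophore-binding Lcn2 was higher on array A, at 70915 and 14141 (1.85). Cebpe itself, which is also on this list, differed by 0.37, and Gfi1 by 0.076. The summed scaled signal was 158 on array A against 134 on array B. The factor Cebpe (78751 and 43651) weighs most in it, with Csf3r (51823 and 41172) and, on array A, Lcn2.

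Mast cell and basophil genes, which depend on Gata2 and Mitf, lay on both sides. Of 9 measured, 3 (33.3%, against 7.30% of all measured genes) were higher by 2-fold or more on array B, the protease genes Cpa3 (170 and 5298, −5.44), Gzmb (−4.86) and Cma1 (−2.95, and −1.74 with normexp). On array A, 4 (44.4%, against 3.85%) were higher, the cytokine gene Il4 (1702 and 138, 3.14), the histamine enzyme gene Hdc (1.67), Fcer1g (1.48, and 0.81 with normexp) and Cd200r3 (1.38). Fcer1a, of the IgE receptor, was well above background on array B alone, at least 45.7-fold higher there, a bound of −5.51 on the log2 scale that was −3.91 with normexp. Kit, Ms4a2 and the tryptase genes Tpsab1 and Tpsb2 were detected on neither array. The median difference was 0.47. The summed scaled signal was 147 on array A against 124 on array B, and 1 bright gene, Srgn (169012 and 87717), makes up most of it.

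Of 10 measured monocyte and macrophage genes, 2 (against 7.30% of all measured genes) were higher by 2-fold or more on array B (Cd68, −1.26, and Ncf4, −1.13) and 1 (against 3.85%) on array A, the Fc receptor gene Fcgr1 (7872 and 1200.5, 2.23). With median scaling the counts were 0 on array B and 2 on array A, and Cd68 was under 2-fold with normexp as well (−0.87). Lyz1, above background on array B alone, was higher there by at least 8.59-fold (−3.10 on the log2 scale, and −1.67 with normexp), and Cd14, Msr1 and Cybb were detected on neither array. The median difference was −0.36. The summed scaled signal was 48.1 on array A against 76.6 on array B, but the bright gene Ncf4 (36500 and 57184) weighs most in it. Of 9 measured T and NK cell genes, 3 (33.3%, against 3.85% of all measured genes; 4 with median scaling and 2 with normexp) were higher by 2-fold or more on array A, among them the interleukin-2 receptor gene Il2ra (11855 and 1134, 2.91) and Cd3d (1.27, and 0.60 with normexp), and 1 (11.1%, against 7.30%) on array B, the adaptor gene Lat (−2.72). Zap70, above background on array B alone, was higher there by at least 4.81-fold, as was Cd5 by at least 2.82-fold, and with normexp their bounds were −1.46 and −0.95 on the log2 scale. The markers Thy1, Cd2, Tcf7 and Bcl11b were detected on neither array. The summed scaled signal was 16.8 on array A against 7.37 on array B, with a median difference of 0.48. The part of any of these cell types in the differences of the factors was not tested.

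**Figure D4:**
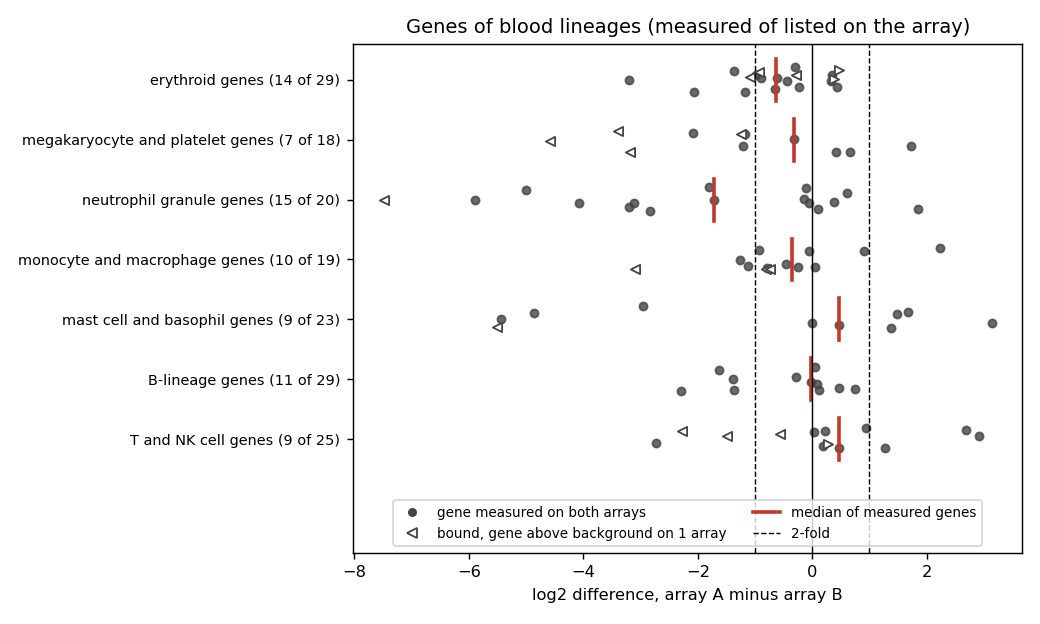
Difference on the log2 scale, array A less array B, for listed genes of 7 blood lineages, 1 point per gene measured on both arrays, open triangles for bounds of genes well above background on 1 array, red bars for the median of the measured genes and dashed lines at 2-fold, from 1 array per cell line. The neutrophil granule genes have the lowest median (−1.73), and those measured on both arrays reach −5.90, while the medians of the other 6 lists lie between −0.63 and 0.48.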

How the data were processed

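RNA of both cell lines was extracted (with TRIzol per the labels, and with an RNeasy kit per the methods of the study), labelled with Cy3 and hybridised to 1 array each. The deposited scanner intensity was made by the authors with Agilent Feature Extraction 9.5.1.1 (version from the submitters' processing notes), with background subtracted and surrogate values for spots not above background. Their deposited table holds log2 values made after a floor of 1.0 and division by the 75th percentile. Its medians were −5.21 for the parental and −5.45 for the BaF/3 (#BEB1) column. Setting its columns against the scanner values showed a log2 scale without centring per gene. It does not settle which cell line each array holds, though the LOX-1 result stated by the study has the direction of this table.

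Here the 43020 spots that are no controls, of 44397 features and 39429 probes, were floored at 1.0 (0 spots were lower), divided by the 75th percentile, log2-transformed and averaged per probe. The RefSeq gene table of GRCm38.p6 gave names to 26049 probes through accessions, to 3200 through symbols and to 930 through older symbols, and for 9250 the scanner's own name was used. Probe coordinates are those of the scanner output, in mm9. Where 1 array alone was well above background, the other was set to its lowest such signal (27.6 on array A, 22.9 on array B), or to the dim signal if higher, which gives a bound. With 1 array per line no test was possible, and 2-fold is a size. Precision is limited by this number of arrays.

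The factors, the role groups, the marker lists and the motifs were chosen with earlier results of these data known. Named were all 40 factors, up to 6 measured genes of each list at least 2-fold apart in each direction, up to 3 bounds in each direction and Olr1. Genes named as not detected, Srgn, and those short of 2-fold in the closing section were chosen after their values were seen. Hbb-b1, Ly6c2 and Igll1 were listed but matched no probe by name. Some genes that this rule takes are not named here. The steps were tested on simulated arrays. Alternatives were median and quantile scaling, scaling to the probes well above background throughout, normexp (offset 50), a floor of 5.0, other filters on dim probes, outlier spots left out, other rules for several probes, genes at their bound, the authors' table and a 3-fold threshold. Recomputing bounds was added after seeing the data. Python 3.11.15 with numpy 2.4.6, pandas 2.3.3 and matplotlib 3.10.9, and R 4.3.3 with limma 3.58.1 were used.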

Additional observations from a re-analysis of the deposited data

How the results depend on the processing

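The median difference of the factors was −0.20 and turned to 0.092 with median scaling, while the other settings gave −0.28 to −0.17. A 3-fold threshold left 1 factor higher on array A against 3 on array B. The counts at 2-fold were otherwise 2 or 3 on array A and 4 to 8 on array B, the highest with no filter on dim probes, where all 40 factors were counted. Of the factors 2-fold or more apart, 2 of 8 were brighter on array A in the main setting and 3 of 7 (42.9%) with median scaling. Of all measured genes 2-fold or more apart, 570 of 1652 were brighter on array A in the main setting. With median scaling, 1313 of all measured genes were brighter by 2-fold or more on array A and 587 on array B. Of 312 recomputed differences of single factors, 279 moved by no more than their error SD, and 33 by more. No difference of a factor past 2-fold changed sign, while 6 factors nearer to 0 did so under some setting (Erg, Fli1, Gfi1, Mitf, Myb and Runx1). Gata1, Ikzf2 and Cebpb crossed 2-fold under some setting. No paired analysis was possible because each cell line had 1 array, and no array could be left out for the same reason.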

Other observations

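Partners and relatives of the factors were listed as well, 61 genes, of which 40 (65.6%) were measured on both arrays and 17 were well above background on neither. The measured share was 65.0% for the 40 factors and 46.7% for all genes. The median difference of the measured partners and relatives was 0.15 (0.44 with median scaling). Brighter on array A by 2-fold or more were 2 of the 40, against 3.85% of all measured genes. They were Ddit3, a Cebp relative induced by stress, with a signal of 13641 on array A against 3105 on array B (1.66), and the Ets factor Ets2, at 16966 and 4428.5 (1.46). Brighter on array B to this degree were 3 of the 40, against 7.30% of all measured genes. They were Tfeb, a relative of Mitf that drives lysosomal genes (83.4 and 138, −1.21), Bach1, a haem-sensing repressor of globin genes (836 and 1347, −1.17), and Zbtb7a (266 and 394, −1.04), whose probes disagreed (a difference of −0.083 by 1 of them). With median scaling, 5 were higher by 2-fold or more on array A against 0 on array B, and with normexp 2 and 1.

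Ldb1, which holds the Tal1, Lmo2 and Gata complex together, had a signal of 1757 on array A against 2486 on array B (−0.98, past 2-fold at −1.06 when scaled to the probes above background throughout, and just past it with quantile scaling), and Cbfa2t3, a corepressor of the same complex, 698 and 890 (−0.83), as the mean of 3 probes that ran from −1.86 to 0.11. Cbfb, the common partner of the Runx factors, was at 39536 and 29687 (−0.066, and 0.23 with median scaling). Kdm1a, the demethylase recruited by Gfi1 and Gfi1b, was at 8253 and 4585 (0.37). Of the genes well above background on 1 array, Spic (at least 2.38-fold) and Zfpm2 (at least 2.27-fold) were higher on array A and Gata6 (at least 2.23-fold) on array B, and with normexp their bounds were 0.33, 0.45 and −0.98 on the log2 scale.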
